A study of Mus musculus with 38 samples.

Results

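The peaks described here lay around Lck, Zap70, Lat and Lcp2, which encode 4 proteins that act directly beneath the T cell receptor. A peak was taken as a member when its centre fell between 50 kb before and 50 kb after the body of 1 of these genes in the mouse genome build GRCm38/mm10, whatever its height. By this rule 326 of the 359759 peaks in 17 lists were members, namely 109 around Lck, 62 around Zap70, 67 around Lat and 88 around Lcp2. When overlapping peaks of different lists were joined, the members formed 70 sites, of which 21 lay around Lck, 15 around Zap70, 16 around Lat and 18 around Lcp2.

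When the receptor is engaged, the Src-family kinase Lck phosphorylates tyrosine motifs in its CD3 and zeta chains. The kinase Zap70 docks on these motifs and phosphorylates the membrane adaptor Lat and the cytosolic adaptor SLP-76, the product of Lcp2, and both adaptors then gather the enzymes that start calcium and Ras signaling. Lymphoid progenitors have not yet rearranged a receptor, and the study counts Lck and Zap70 among its T-signature genes. RUNX1 binds DNA as a dimer with Cbfb, CTCF is a zinc finger protein of chromatin loop anchors, Med12 belongs to the kinase module of Mediator, p300 is a histone acetyltransferase, and Notch1-IC is the part of Notch1 that enters the nucleus and acts there through the DNA-binding protein RBPJ.

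All samples came from Cas9-LP cells, lymphoid progenitors (LP) of the mouse grown as a line from fetal liver of Ebf1-deficient, Rosa26-Cas9 knock-in animals, so that the control cells also lacked Ebf1 and carried Cas9. LP cells grew on OP9 stroma without Notch ligand, Phase 1 cells were taken early after transfer to OP9-DLL4 stroma, which displays the Notch ligand DLL4, and Phase 2 cells later in the same culture. Chromatin immunoprecipitation with sequencing (ChIP-seq) was performed without guides at the first 2 stages for p300, Med12, CTCF and RUNX1, and at all 3 stages for Notch1-IC. It was also performed in cells that carried a retroviral pool of guides, for RUNX1 in LP cells with control (sgCont) or Ctcf guides (sgCTCF), for RUNX1 in Phase 1 cells with sgCont or Med12 guides (sgMed12), and for Med12 in Phase 1 cells with sgCont or Cbfb guides (sgCbfb). Each list combined 2 replicate samples, 34 in all, and the other 4 of the 38 samples were inputs. Guide cells were a pool in which not every cell need have lost its target, and an in vitro line on stroma stood for the thymus in every group.

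Because a list held no value per replicate, no list could be tested against another, and the intervals below cover counting error only. The lists of cells without guides held 30020 to 49116 peaks for the first 4 factors, but those of Notch1-IC only 152 to 1585 and those of RUNX1 in guide cells only 874 to 2094, while Med12 in guide cells had 18099 to 19053. The study gives a single approximate read number for its libraries, and read numbers per sample were not used here, so that a missing peak in a short list may mean that it was not detectable there. The Notch1-IC lists of Phase 1 and Phase 2 used here are shorter than the peak sets that the study describes. Peak height is given as the authors' normalized score and as its percentile, the percent of peaks in the same list with no higher score, because scores of different lists were not set on a common scale. The lists hold occupancy and not expression.

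The 4 windows differed in what else they held. That of Lck (chr4:129548344-129573641, minus strand) is gene-rich, with 8 other protein-coding genes, among them Hdac1 and Marcksl1. That of Zap70 (chr1:36761798-36782818, plus strand) holds 3, that of Lat (chr7:126363824-126369570, minus strand) 3, and that of Lcp2 (chr11:34046920-34092295, plus strand) 1, 4930469K13Rik, whose annotated body spans Lcp2. Only 26 of the 70 sites had a member of the 4 as the gene with the nearest annotated protein-coding start. Distances below are counted from the gene start in the direction of transcription, and negative ones lie before it.

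RUNX1 was listed at 38 places in LP and 35 in Phase 1 over the 4 windows together. Per gene the median was 9.5 in LP and 9 in Phase 1, against 3 and 4 peaks in the same window of all 21938 protein-coding genes. Around Lck there were 12 in LP and 11 in Phase 1, around Zap70 9 and 7, around Lat 7 and 5, and around Lcp2 10 and 12. Thus Lcp2 was the only one of the 4 with more RUNX1 peaks in Phase 1. Of the 70 sites, 34 held CTCF in either stage, and 22 of these had no RUNX1 peak at all. RUNX1, Med12 and p300 were listed together at 28 sites in LP and at 29 in Phase 1, and 23 sites carried all 3 in both stages.

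**Figure D1:**
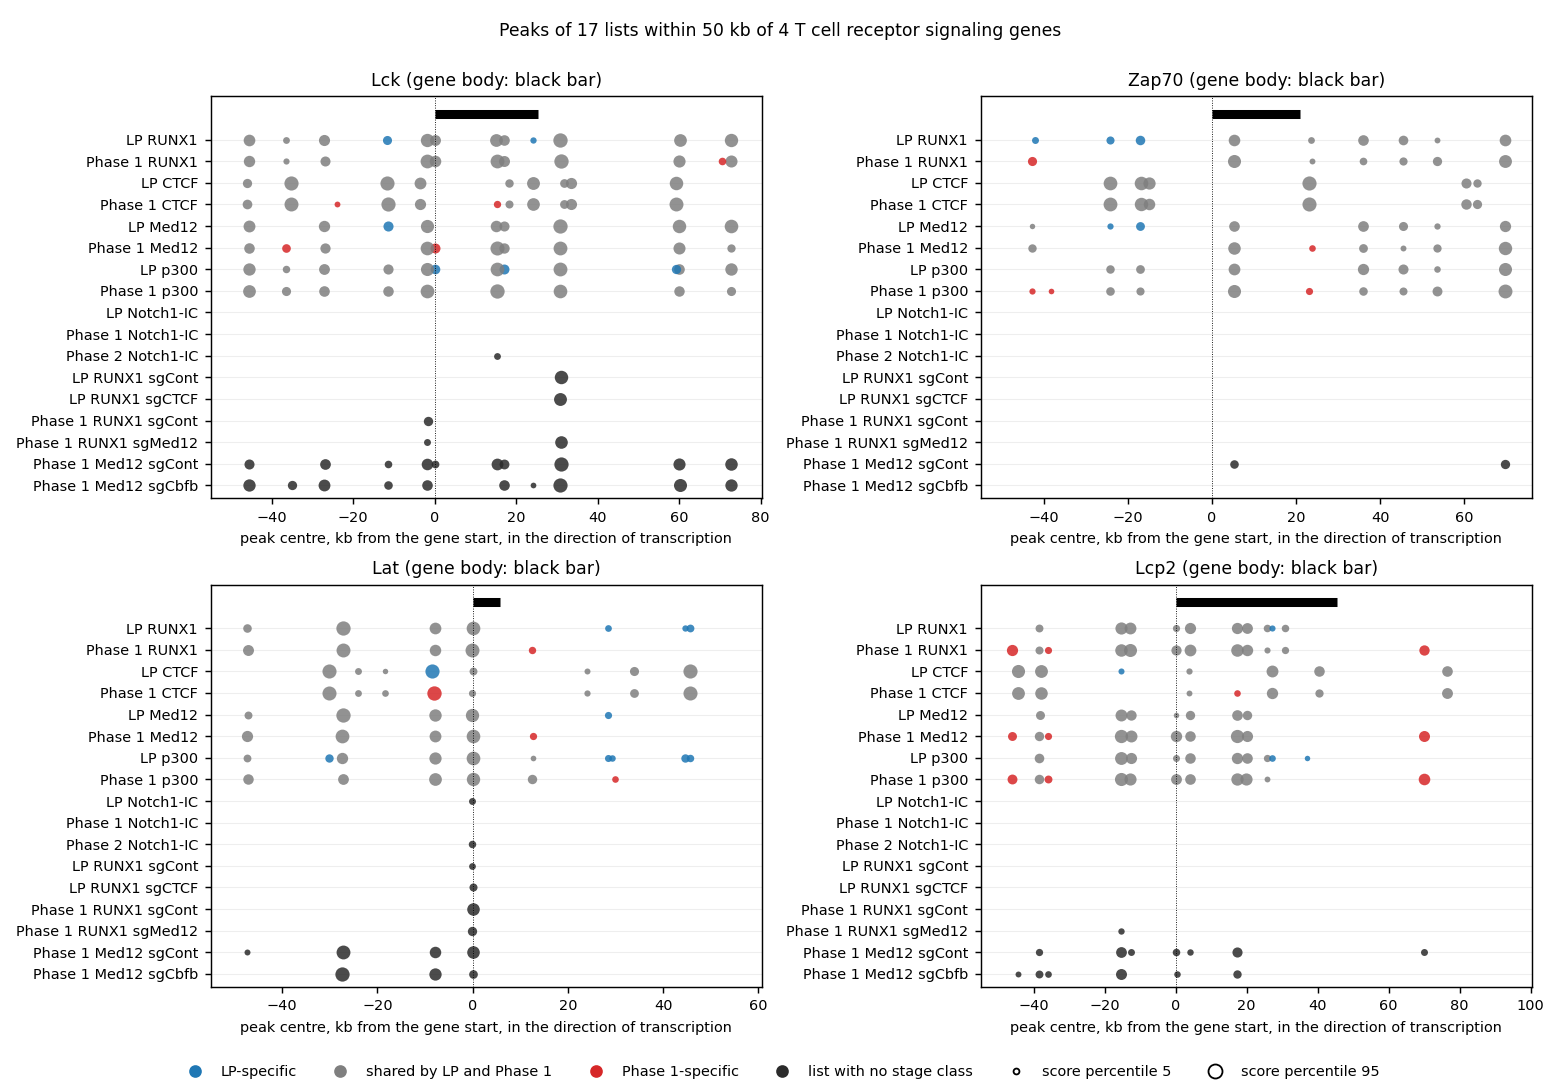
Peak centres of the 17 lists (rows) in the window of each gene, with the distance from the gene start in kb on the horizontal axis and the gene body as a black bar; larger points have a higher score percentile, and colours give the stage class where LP and Phase 1 lists were compared. The 3 Lcp2 sites with Phase 1-specific RUNX1, Med12 and p300 lie at -46.3, -36 and 70 kb, and no list has a peak over the first Zap70 start at 0 kb.

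To ask how occupancy differed between stages, stage-specific peaks were defined as those that no peak of the same factor overlapped by 1 bp in the other stage. For RUNX1, 9 of 38 LP peaks were LP-specific (23.7%, 95% exact binomial interval 11.4 to 40.2%), against 16.8% of the whole LP list. Only 6 of 35 Phase 1 RUNX1 peaks were Phase 1-specific (17.1%, 6.56 to 33.6%), against 30.7% of the whole list. Both intervals held the value of the whole list with windows of 50 kb. For the Phase 1-specific share this depended on the window, because it was 5.26% (0.133 to 26%) within 20 kb and 14.5% (6.5 to 26.7%) within 100 kb, both intervals lying below 30.7%. The 29 shared RUNX1 peaks had a median percentile of 64 in LP, whereas the 9 LP-specific ones had 17.2 and the 6 Phase 1-specific ones 32.8, so that the stage-specific peaks were mostly low ones.

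CTCF was nearly the same in both stages, with 2 of 30 LP peaks LP-specific (6.67%, 0.818 to 22.1%, against 9.55% of the list) and 4 of 32 Phase 1 peaks Phase 1-specific (12.5%, 3.51 to 29%, against 8.35%). A pair of these sits side by side near the Spns1 start, -8.45 and -8.02 kb from Lat, where a CTCF peak at percentile 96.9 in LP and one at percentile 98.9 in Phase 1 did not overlap. The Phase 1 peak ended at position 126377799 and the LP peak began at 126377817, so that they nearly touched. The proximal Lck start had a low CTCF peak in Phase 1 alone (29.1, percentile 21.2). For Med12, 4 of 29 LP peaks (13.8%, 3.89 to 31.7%) were LP-specific, against 19.5% of the list, and 7 of 32 Phase 1 peaks (21.9%, 9.28 to 40%) were Phase 1-specific, against 38.2%. For p300, 10 of 39 LP peaks (25.6%, 13 to 42.1%) were LP-specific, against 20.7%. The p300 share specific to Phase 1, 7 of 36 (19.4%, 8.19 to 36%), was the only one of the 8 shares whose interval left out that of its whole list, 41.6%, with windows of 50 kb. With windows of 100 kb that of Med12 in Phase 1, 18.9% (9.44 to 32%), left it out too. The whole-list shares were not recomputed under alternatives other than window size. There the p300 interval was 12.1 to 42.2% (centres within 100 bp), 10.7 to 44.9% (score of at least 30) and 10.3 to 43.5% (no promoter peaks). It was 2.04 to 25.8% with lists of equal length and 0.149 to 28.7% for peaks whose nearest start is the gene's.

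**Figure D2:**
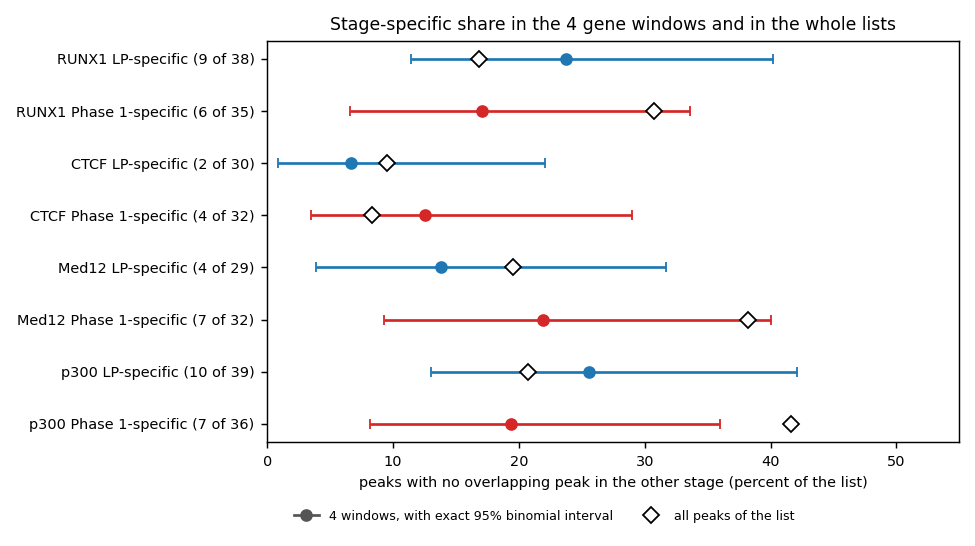
Percent of peaks without an overlapping peak in the other stage, for each factor and stage, in the 4 windows (filled circles with exact 95% binomial intervals) and in the whole lists (open diamonds). The windows lie below the whole lists for all 3 Phase 1-specific shares of RUNX1, Med12 and p300, and with these 50 kb windows the interval leaves out the whole-list value for p300; at 100 kb it does so for RUNX1 and Med12 as well.

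The LP-specific RUNX1 peaks were spread over all 4 genes, and 6 of the 9 (66.7%, 29.9 to 92.5%) overlapped an LP CTCF peak, against 36.8% of the 5385 LP-specific RUNX1 peaks of the genome, which lies within the interval. Each of the 4 genes had at least 1 such peak, whereas 22.9% of protein-coding genes had one within 50 kb. At a score of at least 30 only 2 such peaks were left, at Lck -11.7 kb and Zap70 -17.1 kb. Counting only peaks whose nearest start was the gene's left 1, at Zap70 -17.1 kb. The 22.9% was not recomputed under these alternatives. The study had already named Lck and Zap70 as loci with such peaks in these data. The 4 windows also held a median of 9.5 LP RUNX1 peaks, beside 3 for all protein-coding genes. At Lck the LP-specific RUNX1 peaks on CTCF lay in an intron at 24.2 kb (score 18.8, percentile 10) and at -11.7 kb (37.7, percentile 40.6). Those of Zap70 stood at -24.3 kb (29.4, percentile 29.7) and -17.1 kb (42.2, percentile 45.5), both in introns of 4933424G06Rik. The Lat site at 45.6 kb (27.4, percentile 26.6) is intergenic, and that of Lcp2 at 27.1 kb (18, percentile 8) is in an intron. All 6 ranked below the middle of the RUNX1 list, although the CTCF peaks beneath them stood at percentiles 71.6 to 96.7.

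CTCF itself stayed at these places: all 6 had a CTCF peak in Phase 1 also. The RUNX1 and CTCF centres were 14 and 41 bp apart at Lck, 41 and 96 bp at Zap70, 31 bp at Lat and 25 bp at Lcp2, with a median of 36 bp beside 43 bp over all 1980 such peaks. The 3 LP-specific RUNX1 peaks without CTCF lay at -42.2 kb of Zap70 and at 44.5 and 28.4 kb of Lat. Over the 9 peaks, p300 was listed at 7 in LP and at 3 in Phase 1, and Med12 at 4 in LP and at none in Phase 1. Among all LP-specific RUNX1 peaks, p300 was listed at 76% in LP and 27.5% in Phase 1, and Med12 at 61.9% and 15%. RUNX1 and Med12 were thus absent together from the Phase 1 lists at Lck -11.7 kb, Zap70 -24.3 kb and Zap70 -17.1 kb, where p300 remained listed. Med12 was nonetheless listed at Lck -11.7 kb in Phase 1 cells with sgCont (percentile 24.1) and with sgCbfb (percentile 35.1).

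The reference sequence of the 200 bp around the 6 RUNX1 centres is shown because it carries the CTCF motif more often than the RUNX motif. Capitals mark matches on either strand to the RUNX motif (TGTGGT or TGCGGT) or to the CTCF core motif with at most 1 letter off its consensus, and no base lay in both. The sequences are given on the plus strand of GRCm38/mm10.
Lck intron at 24.2 kb, chr4:129549372-129549571: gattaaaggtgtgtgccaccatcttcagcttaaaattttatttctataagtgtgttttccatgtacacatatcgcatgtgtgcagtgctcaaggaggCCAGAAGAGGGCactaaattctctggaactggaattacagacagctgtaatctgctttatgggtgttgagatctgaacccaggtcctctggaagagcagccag
Lck at -11.7 kb, chr4:129585219-129585418: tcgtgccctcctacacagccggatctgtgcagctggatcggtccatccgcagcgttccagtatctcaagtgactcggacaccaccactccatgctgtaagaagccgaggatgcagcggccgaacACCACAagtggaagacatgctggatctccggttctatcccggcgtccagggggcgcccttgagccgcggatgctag
Zap70 at -24.3 kb, chr1:36737438-36737637: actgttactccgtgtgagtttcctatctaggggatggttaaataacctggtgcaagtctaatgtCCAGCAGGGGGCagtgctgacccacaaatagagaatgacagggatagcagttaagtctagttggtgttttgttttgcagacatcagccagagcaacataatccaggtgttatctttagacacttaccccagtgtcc
Zap70 at -17.1 kb, chr1:36744603-36744802: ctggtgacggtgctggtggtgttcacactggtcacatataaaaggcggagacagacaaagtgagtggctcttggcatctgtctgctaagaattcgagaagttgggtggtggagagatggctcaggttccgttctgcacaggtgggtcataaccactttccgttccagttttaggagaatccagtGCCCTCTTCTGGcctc
Lat at 45.6 kb, chr7:126323856-126324055: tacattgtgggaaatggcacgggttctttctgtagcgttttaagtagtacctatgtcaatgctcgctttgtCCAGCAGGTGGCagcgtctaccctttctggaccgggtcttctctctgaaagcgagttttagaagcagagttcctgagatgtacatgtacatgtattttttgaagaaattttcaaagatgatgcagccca
Lcp2 intron at 27.1 kb, chr11:34073877-34074076: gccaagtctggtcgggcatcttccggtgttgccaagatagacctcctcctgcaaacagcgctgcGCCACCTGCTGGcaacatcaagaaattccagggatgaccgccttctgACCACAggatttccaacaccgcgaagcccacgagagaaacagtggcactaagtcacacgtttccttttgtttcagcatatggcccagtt

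The CTCF core was matched in 5 of the 6 stretches, all but that of Lck -11.7 kb, and the RUNX motif in 2, those of Lck -11.7 kb and Lcp2. The Lck -11.7 kb stretch holds a near match to the CTCF core, 2 letters off the consensus, which the cutoff of 1 letter left out. Its CTCF peaks stood at percentiles 96.4 in LP and 97.1 in Phase 1, so that the missing match does not show that a CTCF motif is absent. Among all 1980 LP-specific RUNX1 peaks on CTCF, 58.9% held the CTCF core and 24.3% the RUNX motif in a stretch of this length. Of the 3 LP-specific members without CTCF, none held either motif, where 37.9% of the 3400 peaks of this kind held the RUNX motif and 2.41% the CTCF core.

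Phase 1-specific RUNX1 peaks were fewest at Lck, Zap70 and Lat, with 1 each, and Lcp2 had 3. By comparison, 52.3% of protein-coding genes had at least 1 in such a window. A Phase 1 Med12 peak overlapped 5 of the 6 (83.3%, 35.9 to 99.6%, against 75% of all Phase 1-specific RUNX1 peaks), and a Phase 1 p300 peak the same 5 (against 79.6%). CTCF was at none of them in either stage. The peak without either cofactor was that at 70.5 kb of Lck (24.3, percentile 24.3), which no other list held. At Zap70 -42.8 kb (35.4, percentile 41.2) Med12 was already listed in LP, near the lowest score of that list (15, percentile 0.17). At Lat 12.5 kb (23, percentile 21.8) p300 was already listed in LP at percentile 2.72 and stood at 44.4 in Phase 1.

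The 3 Lcp2 sites differed from these, because RUNX1, Med12 and p300 were all listed in Phase 1 and none of them in LP. The site at -46.3 kb had RUNX1 at 63.9 (percentile 64.3), Med12 at 31.8 (percentile 39.3) and p300 at 44.6 (percentile 49.6). The site at -36 kb was lower, with percentiles of 19 for RUNX1, 19.4 for Med12 and 27.6 for p300. The site at 70 kb, beyond the gene, had percentiles of 54.4, 61.8 and 68.3. Such sites made up 3 of the 70, against 6.11% of the 100129 sites formed in the same way over the genome, and 33.9% of protein-coding genes had at least 1 and 3.97% at least 3 within 50 kb. The other 3 genes had none. The opposite, with all 3 factors in LP and none in Phase 1, was seen at 1 site of the 70, at 28.4 kb of Lat, against 1.75% of all sites. The sequence of the 3 Lcp2 sites is shown with the same capitals as above.
Lcp2 at -46.3 kb, chr11:34000493-34000692: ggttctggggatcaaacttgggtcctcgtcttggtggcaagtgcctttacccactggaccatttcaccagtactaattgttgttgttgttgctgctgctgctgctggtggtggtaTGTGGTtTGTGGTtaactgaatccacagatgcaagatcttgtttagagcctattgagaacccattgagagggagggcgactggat
Lcp2 at -36 kb, chr11:34010860-34011059: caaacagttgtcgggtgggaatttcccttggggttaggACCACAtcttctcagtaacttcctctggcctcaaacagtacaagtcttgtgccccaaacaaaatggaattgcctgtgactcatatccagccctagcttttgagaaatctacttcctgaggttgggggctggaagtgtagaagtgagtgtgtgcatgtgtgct
Lcp2 at 70 kb, chr11:34116804-34117003: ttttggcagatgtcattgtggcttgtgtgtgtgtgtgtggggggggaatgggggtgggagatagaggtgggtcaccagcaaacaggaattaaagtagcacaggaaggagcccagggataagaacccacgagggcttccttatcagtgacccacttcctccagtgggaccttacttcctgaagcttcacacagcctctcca

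The stretch at -46.3 kb held a tandem pair of RUNX motifs 1 base apart, that at -36 kb held 1, and that at 70 kb held none. The stretch at 70 kb instead held 3 matches to the ETS motif (CAGGAAG or GAGGAAG, both strands), and that at -36 kb held 2 of these and 1 match to the RBPJ motif (GTGGGAA). Over the 6 Phase 1-specific members, 4 had the RUNX motif, against 53.8% of all 11787 Phase 1-specific RUNX1 peaks on the assembled chromosomes, and none had the CTCF core, against 3.11%. The ETS motif was in 2 of the 6, against 29.9% of those peaks, and the RBPJ motif in 1, against 7.05%.

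In the Zap70 window the highest LP peak stood at 69.7 kb (77.8) in an intron of Tmem131, followed closely by the second annotated start of Zap70 (75.3), and in Phase 1 that start (122.1) was followed by the peak at 69.7 kb (114.8). In the Lat window the Nfatc2ip start was highest in LP (284.9, beside 168.2 at the Lat start) and the Lat start in Phase 1, by a small margin (204.6 beside 199.9). The same pair of peaks thus led both windows in both stages. At Lcp2 the highest peak was upstream in each stage, at -15.4 kb in LP (90.7) and at -12.8 kb in Phase 1 (121.8). In the Lck window the start of Hdac1, which encodes a histone deacetylase, was highest in both stages (314.3 and 331.7).

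Peaks over the members' own starts were then followed by their percentile. Lck has a distal start, at 0 kb, and a proximal start 15.2 kb inside the gene, the one known to be used early in the thymus. The RUNX1 peak at the proximal start stood at percentile 81.5 in LP and 93.2 in Phase 1, that of Med12 at 67.4 and 95.6, and that of p300 at 91.8 and 98.5. The distal start had RUNX1 at 61 and 68.1, Med12 in Phase 1 alone (50.9) and p300 in LP alone (46.7). A further site at -1.81 kb carried RUNX1 at 87.4 and 93, Med12 at 86.1 and 91.4, and p300 at 85.1 and 92. All 3 factors ranked higher in Phase 1 at the proximal start and at -1.81 kb. Shared peaks of the whole lists, which differ in length, gained a median of 2.59 percentile points for RUNX1, 2.91 for Med12 and 3.08 for p300.

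Zap70 had no peak in any list over its first start, and its start peaks all lay over the second one (the shorter of the annotated coding transcripts), in the annotated 5′ UTR. There RUNX1 stood at percentile 68.3 in LP and 84.5 in Phase 1, Med12 at 57.9 and 78.6, and p300 at 70.2 and 84.6. The Lat start was high from the outset, with RUNX1 at 91.8 and 94.5, Med12 at 87.1 and 91.2, and p300 at 91.9 and 88.2. The Lcp2 start was the lowest in LP and differed most, with RUNX1 at 20 and 53.5, Med12 at 1.06 and 65.9, and p300 at 18 and 60.1.

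**Figure D3:**
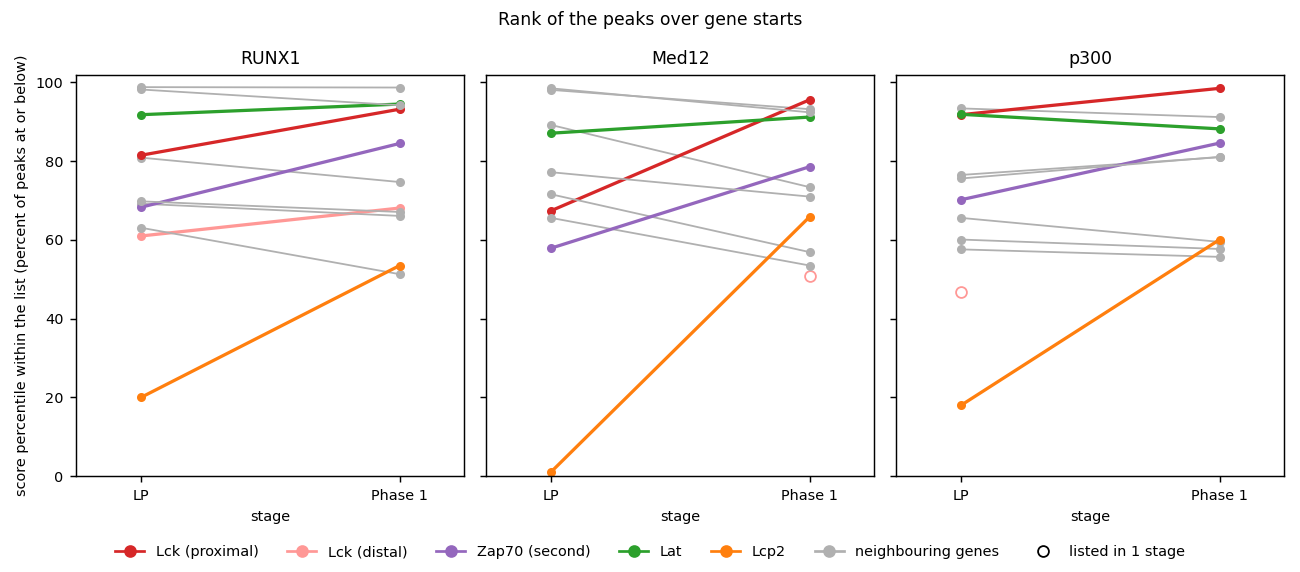
Score percentile within the list (vertical axis) of the RUNX1, Med12 and p300 peaks over gene starts in LP and Phase 1, for the 4 genes (coloured) and for 6 start sites of neighbouring genes in the same windows (grey); open points were listed in 1 stage. All coloured RUNX1 and Med12 lines rise and all grey ones fall, by as little as 0.1 points.

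Among the start sites of the 4 genes, RUNX1 ranked higher in Phase 1 at 5 of 5, Med12 at 4 of the 4 listed in both stages, and p300 at 3 of the 4 listed in both stages, the exception being Lat. The distal Lck start is outside the Med12 and p300 counts, with Med12 listed in Phase 1 alone and p300 in LP alone. In the whole lists a higher percentile in Phase 1 was found at 55% of shared RUNX1 promoter peaks, 41.6% for Med12 and 68.4% for p300. The 6 start sites of neighbours in the same windows, those of Marcksl1, Hdac1, Eif3i with Tmem234, Iqcc, Spns1 and Nfatc2ip, were set beside them after the values had been seen. They came from the Lck and Lat windows alone, and the Zap70 and Lcp2 windows gave no neighbour start. RUNX1 ranked lower in Phase 1 at 6 of these 6 and Med12 at 6 of 6, whereas p300 ranked higher at 2 of 6. For Med12 the differences ran from 4.1 to 64.8 percentile points at the members and from -15.8 to -4.9 at the neighbours. For RUNX1 they ran from 2.7 to 33.5 and from -11.8 to -0.1, so that the ranges did not overlap for either factor. Over all shared promoter peaks the median difference was 0.544 points for RUNX1 (quartiles -2.86 and 4.73), -1.44 for Med12 (-6.75 and 4.19) and 2.18 for p300 (-1.12 and 6.25). The Lat value for RUNX1, 2.7 points, lay within those quartiles, as did that for Med12, 4.1 points. Promoter peaks of the whole lists were taken by the annotation of the LP peak. By it the Lcp2 start is 5′ UTR and the Spns1 start non-coding, so that neither is among them.

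Notch1-IC was rare in these windows. Its Phase 2 list had 1 peak at the proximal Lck start (16.2, percentile 15.6) and 1 at the Lat start (16.8, percentile 23), so that 2 of the 4 genes had a Phase 2 peak, against 2.68% of protein-coding genes. The LP list, taken without ligand, had 1 peak, also at the Lat start (16.1, percentile 17), while 11.9% of protein-coding genes had an LP peak. The Phase 1 list, with only 152 peaks, had none in any window, which does not show that Notch1-IC was absent there. All 3 peaks were close to the lowest score that the lists contain, 15. The stretches of the Phase 2 peaks that precede the annotated UTRs are shown because the peaks share the ETS motif and differ in the RBPJ motif. Capitals here mark RUNX, ETS and RBPJ matches, on the plus strand, opposite to both genes.
Lck, before the proximal start, chr4:129558392-129558516: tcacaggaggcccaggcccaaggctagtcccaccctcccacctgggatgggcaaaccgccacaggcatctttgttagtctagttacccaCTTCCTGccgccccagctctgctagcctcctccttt
Lat, before the start, chr7:126369542-126369712: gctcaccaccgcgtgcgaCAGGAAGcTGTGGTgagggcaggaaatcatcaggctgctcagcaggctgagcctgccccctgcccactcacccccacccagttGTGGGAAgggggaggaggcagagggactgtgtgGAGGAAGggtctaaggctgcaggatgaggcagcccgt

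The Lat stretch held 1 match to the RBPJ motif, 2 to the ETS motif and 1 to the RUNX motif, and the Lck stretch 1 ETS match alone. The RBPJ motif was matched in 26.2% of 343 Phase 2 Notch1-IC peaks on the assembled chromosomes, in 200 bp around their centres. In the same stretches the ETS motif was matched in 36.2% and the RUNX motif in 52.5%. The Lat start was the most crowded place in the 4 windows, being listed in 16 of the 17 lists, all but Phase 1 Notch1-IC.

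RUNX1 in guide cells was listed at very few of these places. In LP cells both the sgCont and the sgCTCF list had 2 peaks, at the Hdac1 start (40.3 and 35.7) and at the Lat start (19.5 and 22), so that 2 of 2 sgCont peaks were found again, against 59.1% of the sgCont list, and 65.9% of the sgCTCF list in turn. None of the 6 LP-specific RUNX1 peaks on CTCF was in either list. Since the control list lacked them too, these lists cannot show what loss of CTCF did there.

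In Phase 1 cells the sgCont list had RUNX1 at -1.81 kb of Lck (23, percentile 43.8) and at the Lat start (35.1, percentile 79.2). Both were found again with sgMed12, against 71% of the sgCont list, and there they stood at percentiles 17 and 43. The sgMed12 list also had the Hdac1 start and the Lcp2 site at -15.4 kb (15.8, percentile 10.7), so that 2 of its 4 peaks were in the control, against 52.6% of that list. The Hdac1 peak, at percentile 79.7, was thus listed with sgMed12 and not with sgCont.

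Med12 in Phase 1 cells with sgCont or sgCbfb gave longer lists, and here the members could be followed. Of 23 sgCont peaks, 15 were found again with sgCbfb (65.2%, 42.7 to 83.6%), close to the 67.8% of the whole list. By gene, 8 of 10 were found again around Lck, none of 2 around Zap70, 3 of 4 around Lat and 4 of 7 around Lcp2. In turn 15 of the 19 sgCbfb peaks were in the sgCont list (71.4% over the whole list). The 8 not found again had a median percentile of 21.7 and the 15 found again one of 59.5, as over the whole list, where the medians were 27.7 and 62.5.

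Which places lacked Med12 with sgCbfb is seen best at the starts. Neither the proximal Lck start (52.8, percentile 70.4), nor the distal one (23.3, percentile 26), nor the second Zap70 start (27.4, percentile 35) was listed with sgCbfb. The Lat start was, at percentile 36.3 instead of 79.4, and the Lcp2 start at 12.3 instead of 23.8. Hence 2 of 5 member starts were found again, and 6 of the 6 neighbour starts were. In the sgCont list the neighbour starts stood at percentiles of 51.4 to 97.4 and the member starts at 23.8 to 79.4. The sets were thus not matched for height, and low peaks were found again less often over the whole list. Of all sgCont peaks annotated as promoter 92.3% were found again, and of the other peaks 49.8%. The Zap70 start peak is annotated as 5′ UTR and belongs to the latter, as does the Spns1 start peak, annotated as non-coding, so that by this annotation 2 of 4 member start peaks and 5 of 5 neighbour ones were found again. Among promoter peaks in both lists, 36.1% ranked lower with sgCbfb, as did 2 of 2 member starts and none of the 6 neighbour starts, of which Hdac1 kept its percentile of 97.4. Apart from starts, 7 of 12 sgCont peaks were found again. Med12 was listed with both guides at Lck 72.7 kb (78.5 and 76.3), 17 kb (49.4 and 57.2), -1.81 kb (68.4 and 57.2) and -11.6 kb (24.1 and 35.1) and at Lcp2 -38.5 kb (20.4 and 27.6), -15.4 kb (59.5 and 61.6) and 17.3 kb (52.2 and 32.8). It was not listed with sgCbfb at Zap70 69.7 kb (43.2), at Lat -47.3 kb (6.28), or at Lcp2 -12.6, 3.89 and 70 kb (16.8, 11.5 and 17.3), where the values in parentheses are percentiles. Of the 3 Lcp2 sites at which RUNX1, Med12 and p300 were listed in Phase 1 alone, that at 70 kb had Med12 with sgCont and not with sgCbfb, that at -36 kb with sgCbfb (19, percentile 14.1) and not with sgCont, and that at -46.3 kb with neither.

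**Figure D4:**
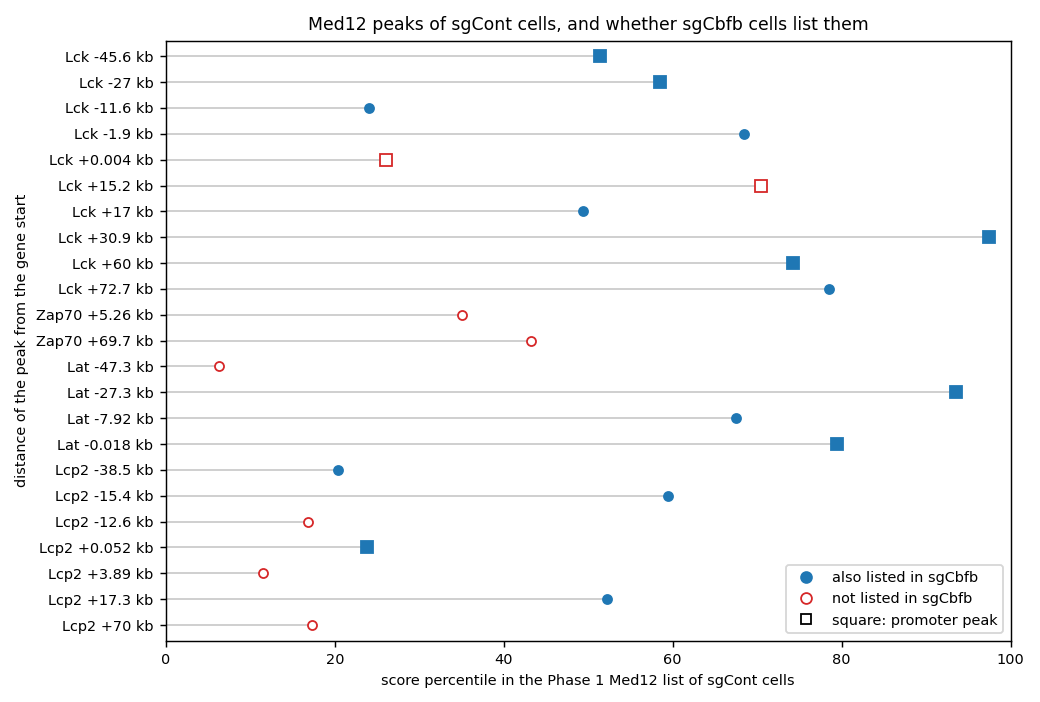
Score percentile, in the sgCont list, of the 23 Med12 peaks around the 4 genes in Phase 1 cells (rows, by distance from the gene start in kb); filled blue points were also listed with sgCbfb, open red ones were not, and squares are promoter peaks in the deposited annotation. The proximal Lck start, at percentile 70.4, is the highest of the 8 peaks not listed with sgCbfb, and both Zap70 peaks are open.

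Other genes of the pathway were read in the same way from a list of 40, which held the CD3 and zeta chains, kinases, phosphatases, adaptors, exchange factors and NFAT proteins. Of these, 37 (92.5%, 79.6 to 98.4%) had at least 1 Phase 1-specific RUNX1 peak and 14 (35%, 20.6 to 51.7%) an LP-specific one on LP CTCF, beside 52.3% and 22.9% of protein-coding genes. Phase 1-specific peaks outnumbered LP-specific ones at 31 of the 40 and at 36.3% of protein-coding genes, and the reverse held at 3, namely the ubiquitin ligase gene Cbl and the inhibitory adaptor genes Lax1 and Sit1, and at 16.9% of protein-coding genes. Among Lck, Zap70, Lat and Lcp2, the reverse held at 3 of 4, and Lcp2 alone had more Phase 1-specific peaks. For RUNX1, the median number of peaks in these 40 windows was 6.5 in LP and 9 in Phase 1, whereas the medians of the 4 members were 9.5 and 9. Windows of the 40 genes ran from 101.7 to 394.5 kb (median 153.1 kb) and those of the 4 from 105.7 to 145.4 kb, so that longer genes could collect more peaks.

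The most Phase 1-specific RUNX1 peaks were found at Nfatc2, a calcium-regulated transcription factor (11, with no LP-specific peak), Fyn, a Src-family kinase like Lck (8, with 6 LP-specific), and Fyb, an adaptor that binds SLP-76 (7, with no LP-specific peak). LP-specific RUNX1 on CTCF was found 4 times at Csk, whose kinase phosphorylates the inhibitory tyrosine of Lck, and 2 times each at Cbl, Ubash3a and Vav1. It was found once each at Cd247, Cd3d, Cd3e, Cd3g, Grap2, Grb2, Pag1, Ptpn6, Sit1 and Skap1, where the windows of the 3 CD3 genes overlap. A Phase 2 Notch1-IC peak lay near 4 of the 40, Cd3d, Cd3e, Cd3g and Pag1, and an LP one near 16.

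**Figure D5:**
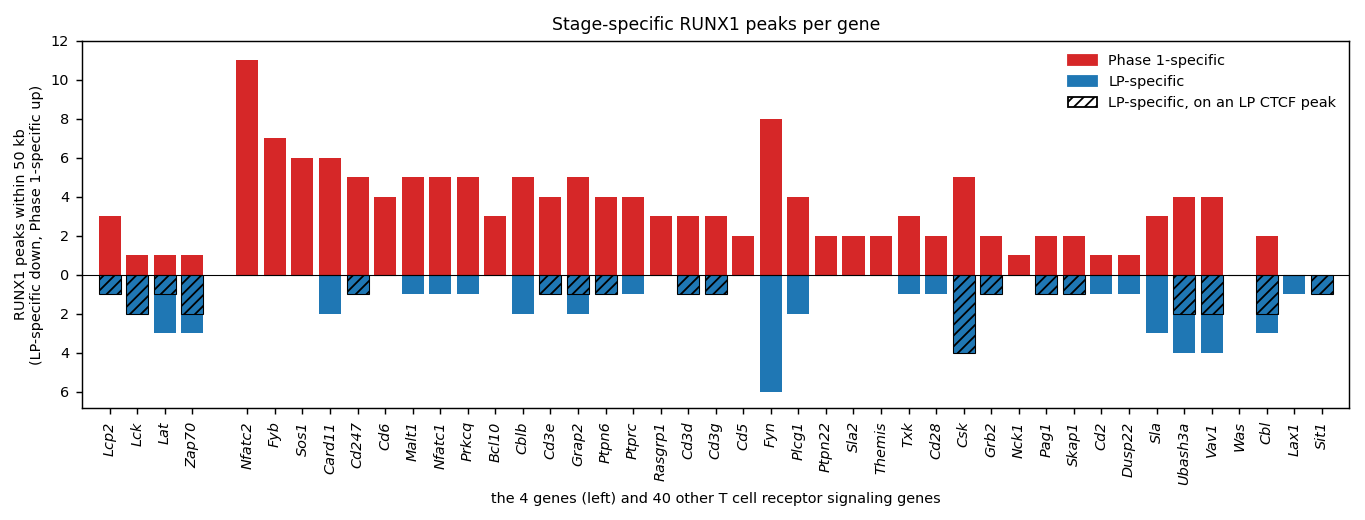
Number of RUNX1 peaks within 50 kb that were Phase 1-specific (red, upward) or LP-specific (blue, downward; hatched where on an LP CTCF peak) for Lcp2, Lck, Lat and Zap70 at the left and 40 other T cell receptor signaling genes. All 4 genes at the left have a hatched peak, although those of Lat and Lcp2 score below 30, and Nfatc2 has 11 Phase 1-specific ones.

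Finally, the protein-coding genes outside the windows whose peak counts over the 17 lists lay closest to those of each member were found by Euclidean distance of log2(count + 1). They were Gm49322, Scamp4 and Abhd17a for Lck (distances 1.26, 1.26 and 1.28, where the median gene lay at 5.35), Ly6a, Adam22 and Nrp2 for Zap70 (0.748, 1.07 and 1.13, median 3.93), Rasgrp2, Gm1043 and Ddi2 for Lat (1.01, 1.02 and 1.28, median 3.71), and Bcl2l13, St3gal3 and Lyrm7 for Lcp2 (0.535, 0.548 and 0.549, median 4.19). Most of the short lists count 0 for most genes, so that this likeness rests chiefly on the longer lists.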

How the data were processed

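Per the submitters' processing notes and the methods of the study, reads were aligned to mm10 with Bowtie 1.1.1, and HOMER called peaks in factor style against a matched control, filtered them for reproducibility across the replicate pair (irreproducible discovery rate), and annotated them. The deposited lists give a position, an annotation and a peak score, which is the authors' normalized score of at least 15 with its scale not given in the sources used here. It was used within a list alone. Read depth per sample was not used here, and replicates cannot be separated. Groups followed the labels.

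Windows and overlaps (1 bp, Python 3.11.15, pandas 2.3.3, numpy 2.4.6) were checked on simulated peaks of known sharing. Intervals are Clopper-Pearson (scipy 1.17.1). Gene models were from GENCODE M21 and sequences from the RefSeq GRCm38.p6 assembly (pysam 0.24.0). For sites, the nearest gene was that of the nearest protein-coding start in GENCODE. For the alternative that keeps peaks whose nearest start is the gene's, it was read from the deposited RefSeq identifiers. The rules can name different genes for the same peak. No test was run, since each group was 1 list. Named peaks were LP-specific RUNX1 peaks on CTCF, Notch1-IC peaks, guide-cell RUNX1 peaks, peaks over a member's start, the highest RUNX1 peak per window and stage, and sites gaining RUNX1, Med12 and p300 together. From the pathway list, the 3 genes with the most Phase 1-specific RUNX1 peaks and those with LP-specific RUNX1 on CTCF were named; 1 gene of that list is not reported here. The members and lists were chosen with earlier results of these data known. Inputs had no peak list and were not used. Alternatives were windows of 20 and 100 kb, centres within 100 bp, a score of at least 30, lists of equal length, no promoter peaks, peaks whose nearest start is the gene's, and, added later, percentiles among promoter peaks.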

Additional observations from a re-analysis of the deposited data

How the results depend on the processing

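Of 130 values recomputed for 19 shares and counts under 7 alternatives, 111 stayed within the interval or within 1.5 times of the reported value. Some of these could not move, because centres within 100 bp and lists of equal length do not enter the Notch1-IC counts. Others stayed only because the interval was wide. With lists of equal length, 1 of 2 sgCont RUNX1 peaks in place of 2 of 2 was found again with sgMed12, within 15.8 to 100%. With windows of 20 kb, Phase 1-specific shares were 5.26% (RUNX1) and 5.56% (p300), and 100% of the LP-specific RUNX1 peaks lay on CTCF (4 of 4) and 100% of the Phase 1-specific ones on Med12 and on p300 (1 of 1). With windows of 100 kb, 1 Phase 1 Notch1-IC peak was found. Counting only peaks whose nearest start was the gene's, LP-specific shares were 5.56% (RUNX1) and 5.88% (p300), Phase 1-specific ones 0% and 5.88%, 100% (1 of 1) of LP-specific RUNX1 peaks lay on CTCF, and 77.5% and 2.5% of the 40 pathway genes had a Phase 1-specific peak or an LP-specific one on CTCF. At a score of at least 30 the first of those shares was 77.5%, no Notch1-IC peak was left in LP or Phase 2 (0 and 0), and 0 of 1 sgCont RUNX1 peak was found again with sgMed12 (0%). Without promoter peaks no Notch1-IC peak was left (0 and 0). When percentiles were taken among promoter peaks, an alternative chosen after seeing the data, 1 neighbour start in place of 0, that of Hdac1, ranked lower with sgCbfb, and the other start counts were unchanged. In 3 cases no peak was left to count. No paired analysis was possible because each list had already merged its replicates, and for the same reason no replicate could be left out. Shares that rest on 1 to 9 peaks have wide intervals, and a low peak can drop out of a list for want of depth. The cause of the shifts was not tested.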
